A study of Mus musculus with 22 samples.

Results

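The contrast described here is the effect of losing microRNA-21 (miR-21) in mouse pancreatic tumors minus its effect in cancer cell lines grown from such tumors. It uses 22 of the 22 libraries of the series, grouped by genotype and material. RNA of 8 miR-21 knockout (miR21 KO) and 4 wild-type (WT) whole tumors was set beside RNA of 5 KO and 5 WT lines, all from Bl6 mice of a model whose tumors are driven by a mutant Ras oncogene, with recombined p53 alleles shown by genotyping of the lines. The labels give neither the promoter of a Cre, nor whether miR-21 is missing from all cells of a KO tumor, nor the ages of the animals. The lines were passaged repeatedly to outgrow fibroblasts, each comes from 1 animal, and neither material was treated. Titles name 5 animals (2 KO, 3 WT) as the source of both a line and a tumor, so the 2 knockout effects do not come from wholly separate mice. Libraries are numbered within their group.

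MicroRNAs guide Argonaute proteins to mRNAs through the seed, bases 2 to 8 of the mature strand, and paired mRNAs are translated less and decay faster. Loss of a microRNA therefore tends to raise mRNAs whose 3′ UTR holds a match to its seed. MiR-21 is abundant in many carcinomas and in activated fibroblasts and immune cells, so its loss in a tumor could act in the cancer cell, in the stroma or in both, while a cultured line holds only the first. A contrast near 0 means that the knockout effect was alike in both materials. A positive contrast means that KO over WT was higher in tumors than in lines, and a negative one that it was lower.

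The mature mouse microRNA is shown first, from RefSeq (GRCm38.p6, chr11:86584120-86584141, minus strand), with its seed in capitals, followed by the sites of 4 mRNAs to which the results return. Each site is 22 bases of the longest annotated 3′ UTR (GENCODE vM21 on mm10), and its capitals mark the 8-base match that pairs with the seed and ends in an A (8mer).
mmu-miR-21a-5p: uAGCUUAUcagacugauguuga
Acat1 (chr9:53582456-53582477, minus strand): atattcagcATAAGCTAtttca
Cdip1 (chr16:4768262-4768283, minus strand): attcagaagATAAGCTAgagag
Pdcd4 (chr19:53929423-53929444, plus strand): ggtgttctgATAAGCTActttc
Reck (chr4:43944398-43944419, plus strand): cagtttgaaATAAGCTAttaat

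Library totals ran from 24547650 to 31118113 counts. Levels are given as CPM, counts relative to the scaled library total, and 3 counts in the smallest library, the limit that a count of 0 allows, equal 0.122 CPM (counting error only). The gene for miR-21 itself, Mir21a, had 0 counts in all 22 libraries, WT included, so these libraries cannot check the genotype labels through it. The materials matched their labels by markers: the 12 fibroblast genes summed to 39.8 to 182 CPM in lines and to 1980 to 12880 CPM in tumors, and the 17 epithelial and ductal genes to at least 8478 CPM in every line. One WT line stood apart. WT line 3 had 481 CPM of Sparc and 231 CPM of Ttr, against at most 161 and 10.2 CPM in the other WT lines, and the genes that rest on it are named as such below. The female marker Xist was above 900 CPM in KO tumors 1, 3 and 6, KO lines 3 and 4 and WT line 3, and at most 0.472 CPM in the 4 WT tumors, so sex is not balanced between the tumor groups. One pair went against its titles in both markers: KO line 5 and KO tumor 3 are named for the same animal, but the line had 9.72 CPM of the Y-linked gene Ddx3y and 0 of Xist, and the tumor 0 of Ddx3y and 1632 CPM of Xist. The fixed animal block was therefore fitted with and without that KO pair. Y-linked genes also differed within WT pairs, where Xist was at most 0.472 CPM on both sides. WT line 2 had 0 CPM of Ddx3y and of Eif2s3y, against 40.2 and 20.7 CPM in WT tumor 2 of the same animal. WT line 1 had 0 of Ddx3y and 63.9 CPM of Eif2s3y (15.6 and 44.9 CPM in WT tumor 1), and WT line 4 had 45.5 CPM of Ddx3y and 0 of Eif2s3y (73.9 and 9.69 CPM in WT tumor 3). The part of sex in the contrast was not tested. A fit with a Y-linked covariate called 0 genes, but so did the fit without it, so that count cannot show this part. The covariate also uses the Y-linked genes that differed within pairs.

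No gene passed the contrast. Of 18662 genes tested, 0 (0%) had an adjusted p under 0.05 by edgeR's quasi-likelihood test, and the smallest adjusted p was 0.299. Without adjustment, 1540 genes (8.25%) had p under 0.05 for the contrast, 981 of them positive and 559 negative. Limma-voom also called 0 genes. DESeq2 called 67 genes, 49 higher and 18 lower, of which 33 were detected in tumors only and 7 in neither material. Among the genes described below, DESeq2 called Ret, Krt7, Lamb3, Pitpnc1, Kctd11, Tgfb1, Dok2, Klhl30, Slc20a1 and Acta1 lower. It called Acat1, Spats2l, Masp1, Gkap1, Ildr2, Gli1, Egflam, Npr3, Itgbl1, Aoc1, Mn1, Stk32b, Ttr, Ghrl, Magix and Wnt6 higher. Their adjusted p by DESeq2 ran from 0.000513 (Masp1) to 0.0463 (Slc20a1). A fit that keeps the 5 shared animals as a fixed block called 0 genes and left 837 with unadjusted p under 0.05 (1520 with 4 animals, without the KO pair above), and the block as a random term called 0. Named genes are therefore described by their values in each library, the adjusted p beside each is edgeR's, and no direction of the contrast is called for any of them.

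Most genes with a small p for the contrast had effects of opposite sign in the 2 materials. Of the 1540, 1362 (88.4%) did, against 41.6% of all genes tested. In 901 of them KO was lower than WT in lines and higher in tumors, and in 461 the reverse. A large difference between 2 small effects favours opposite signs by construction, so a stricter count was made. An unadjusted p under 0.05 in each material with opposite signs was found for 54 genes (0.289%), 34 lower in KO lines and higher in KO tumors and 20 the reverse, against 229 genes with such p values and the same sign. Detection means a mean of at least 1 CPM over a material, and 30 of the 54 were detected in both.

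Complete separation of the libraries was also counted, with the same limit from the shared animals. Genes whose KO libraries all lay above or all lay below the WT libraries in lines, and again in tumors, numbered 0 (0%) with opposite directions and 10 (0.0536%) with the same direction. Their names were chosen after their values were seen. Among them, Cdip1, Gid4, Taf7, Tprgl, Gk5, Adgrl1 and Nicn1 were higher without miR-21 in both materials, and Pum3 and Tomm34 were lower in both. The 3′ UTRs of Cdip1, Gid4, Taf7 and Tprgl hold an 8mer, and that of Gk5 a match to the seed without the final A (7mer-m8).

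**Figure D1:**
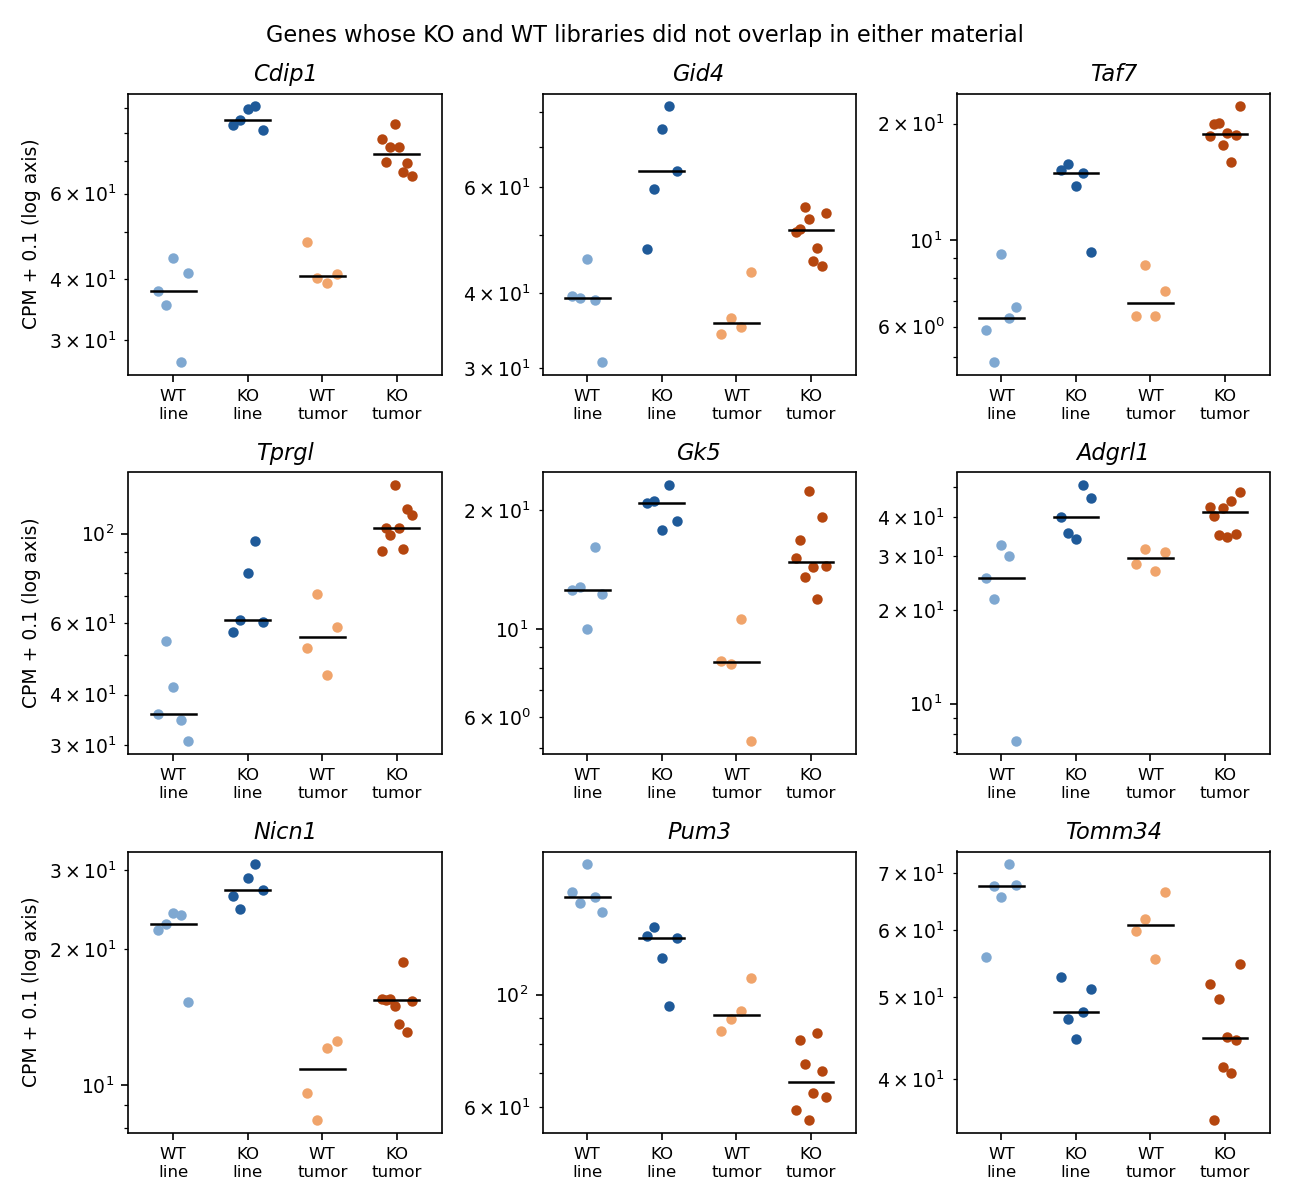
Each point is 1 library's level (CPM plus 0.1, log axis) of 9 of the 10 genes whose KO and WT libraries did not overlap in lines or in tumors, and black bars are group medians. Cdip1, for example, lay between 27.0 and 44.1 CPM in WT lines and between 81.0 and 90.5 CPM in KO lines.

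Cdip1 encodes a membrane protein that promotes p53-dependent apoptosis. It measured 37.8, 35.4, 44.1, 27.0 and 41.1 CPM in the WT lines and 82.9, 85.0, 89.4, 90.5 and 81.0 CPM in the KO lines. In WT tumors 1 to 4 it measured 47.7, 40.3, 39.2 and 40.9 CPM, and in KO tumors 65.2 to 83.4 CPM with a median of 72.1. Its log2 fold change passed in both materials, at 1.21 ± 0.11 (SE) in lines (adjusted p = 1.2e-05) and 0.79 ± 0.11 in tumors (adjusted p = 0.00277). The KO and WT groups do not touch in either material, and the contrast, -0.42 ± 0.15, did not pass (adjusted p = 0.473). Its counts could include reads of Hmox2, which overlaps it on the other strand, since the strand setting of the counting is not given in the sources used here.

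Taf7, which belongs to the basal transcription complex TFIID, was the other gene that passed in both materials. It measured 4.76 to 9.14 CPM in WT lines, 9.22 to 15.7 CPM in KO lines, 6.27 to 8.56 CPM in WT tumors and 15.8 to 22.1 CPM in KO tumors. The fold changes were 1.07 in lines (adjusted p = 0.0473) and 1.41 in tumors (adjusted p = 0.00187) on the log2 scale, and their difference was 0.34 (adjusted p = 0.757). Tprgl, a presynaptic protein, rose in tumors by 0.90 (adjusted p = 0.0333) and had a line effect of 0.85 that did not pass (adjusted p = 0.142), which leaves a contrast of 0.05. Gid4, the substrate receptor of the GID/CTLH ubiquitin ligase, showed the mirror image, with 0.76 in lines (adjusted p = 0.0473) and 0.43 in tumors (adjusted p = 0.14). Atpaf2 overlaps Gid4 on the other strand, with counts at 53.5% of those of Gid4.

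Acat1 had the smallest contrast p of the genes with the same sign of effect in both materials and detected in both. It encodes mitochondrial acetyl-CoA acetyltransferase, which acts in ketone body use and in isoleucine breakdown, and it lies at chr9:53580522-53610382. Levels were 80.1, 107, 99.3, 84.1 and 124 CPM in WT lines and 152, 118, 152, 160 and 148 CPM in KO lines, where KO line 2 lay below WT line 5. WT tumors had 43.6, 41.4, 36.7 and 31.7 CPM and KO tumors 84.5 to 116 CPM (median 103), with no overlap. Acat1 rose in tumors by 1.42 ± 0.13 (adjusted p = 9.5e-06), while the line effect of 0.56 ± 0.13 did not pass (adjusted p = 0.225). The contrast was 0.86 ± 0.18 (adjusted p = 0.299), and DESeq2 gave an adjusted p of 0.00281. KO tumors lay within the range of the WT lines, and WT tumors lay below every line.

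**Figure D2:**
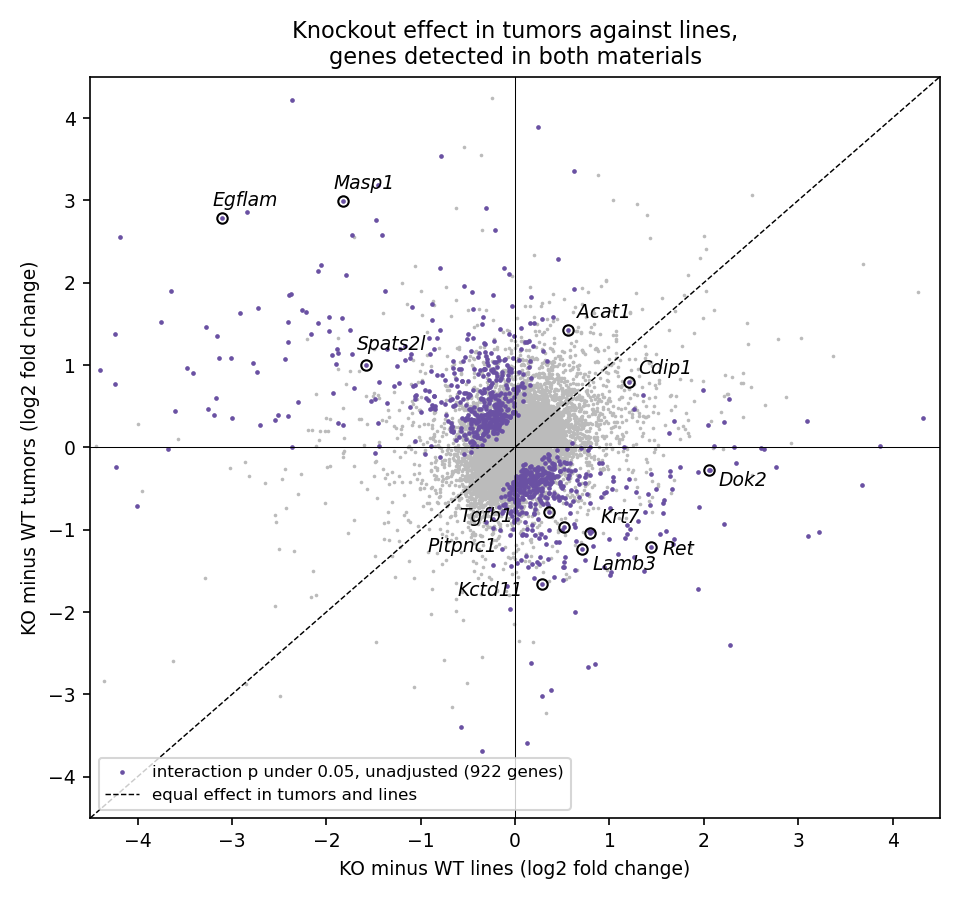
Knockout effect in lines (horizontal) against tumors (vertical), log2 fold changes of the 12385 genes detected in both materials. Purple points have an unadjusted contrast p under 0.05 (922 genes), circles mark named genes, and the dashed line marks equal effects. Cdip1 and Acat1 lie to the upper right, where both effects are positive, and Ret, Krt7 and Lamb3 to the lower right.

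Ret, Krt7, Lamb3 and Pitpnc1 had higher medians in KO than in WT lines and lower medians in KO than in WT tumors. Ret, the receptor tyrosine kinase for glial cell line-derived neurotrophic factors (chr6:118151745-118197718), had the smallest p of those detected in both materials. It measured 1.22, 1.26, 1.53, 1.04 and 1.08 CPM in WT lines and 2.72, 5.82, 3.41, 2.49 and 2.27 CPM in KO lines, so every KO line was above every WT line. WT tumors had 48.7, 16.7, 60.3 and 56.1 CPM, and KO tumors 4.81 to 29.2 CPM with a median of 19.9. The tumor groups overlap only through WT tumor 2, the lowest of its group. Fold changes on the log2 scale were 1.44 ± 0.41 in lines and -1.21 ± 0.36 in tumors, and the contrast was -2.65 ± 0.54 (adjusted p = 0.299).

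Keratin 7 (Krt7), a keratin of duct epithelium, followed the same order at a far higher level. WT lines had 1152, 1473, 466.2, 633 and 1257 CPM and KO lines 2280, 1305, 1486, 1772 and 1765 CPM. WT tumors had 1634, 1016, 1735 and 2681 CPM and KO tumors 492 to 1262 CPM (median 878). The groups overlap in both materials. The contrast was -1.83 ± 0.44 (adjusted p = 0.425), from 0.79 in lines and -1.04 in tumors. Krt18, a keratin of simple epithelia, had a line effect of -0.14 and a tumor effect of -1.24, for a contrast of -1.09 that was -0.72 without WT tumor 4.

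Lamb3 and Lama3 encode chains of laminin-332, which anchors epithelia to the basement membrane. Lamb3 (chr1:193207699-193343878) had 25.9, 72.9, 50.2, 54.4 and 41.4 CPM in WT lines and 70.7, 60.4, 84.2, 105 and 78.7 CPM in KO lines. It had 579, 131, 608 and 334 CPM in WT tumors and 118 to 244 CPM (median 186) in KO tumors, where WT tumor 2 again sat among the KO values. The contrast was -1.94 ± 0.43 (adjusted p = 0.35). Lama3 was low in lines, at 0.556 to 6.36 CPM in WT and 0.461 to 27.2 CPM in KO lines, and measured 550, 146, 916 and 393 CPM in WT tumors against 67.3 to 223 CPM in KO tumors. Its contrast was -3.65 ± 1.08, and under the fixed animal block it was -0.65 with 5 animals and -1.16 with 4.

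**Figure D3:**
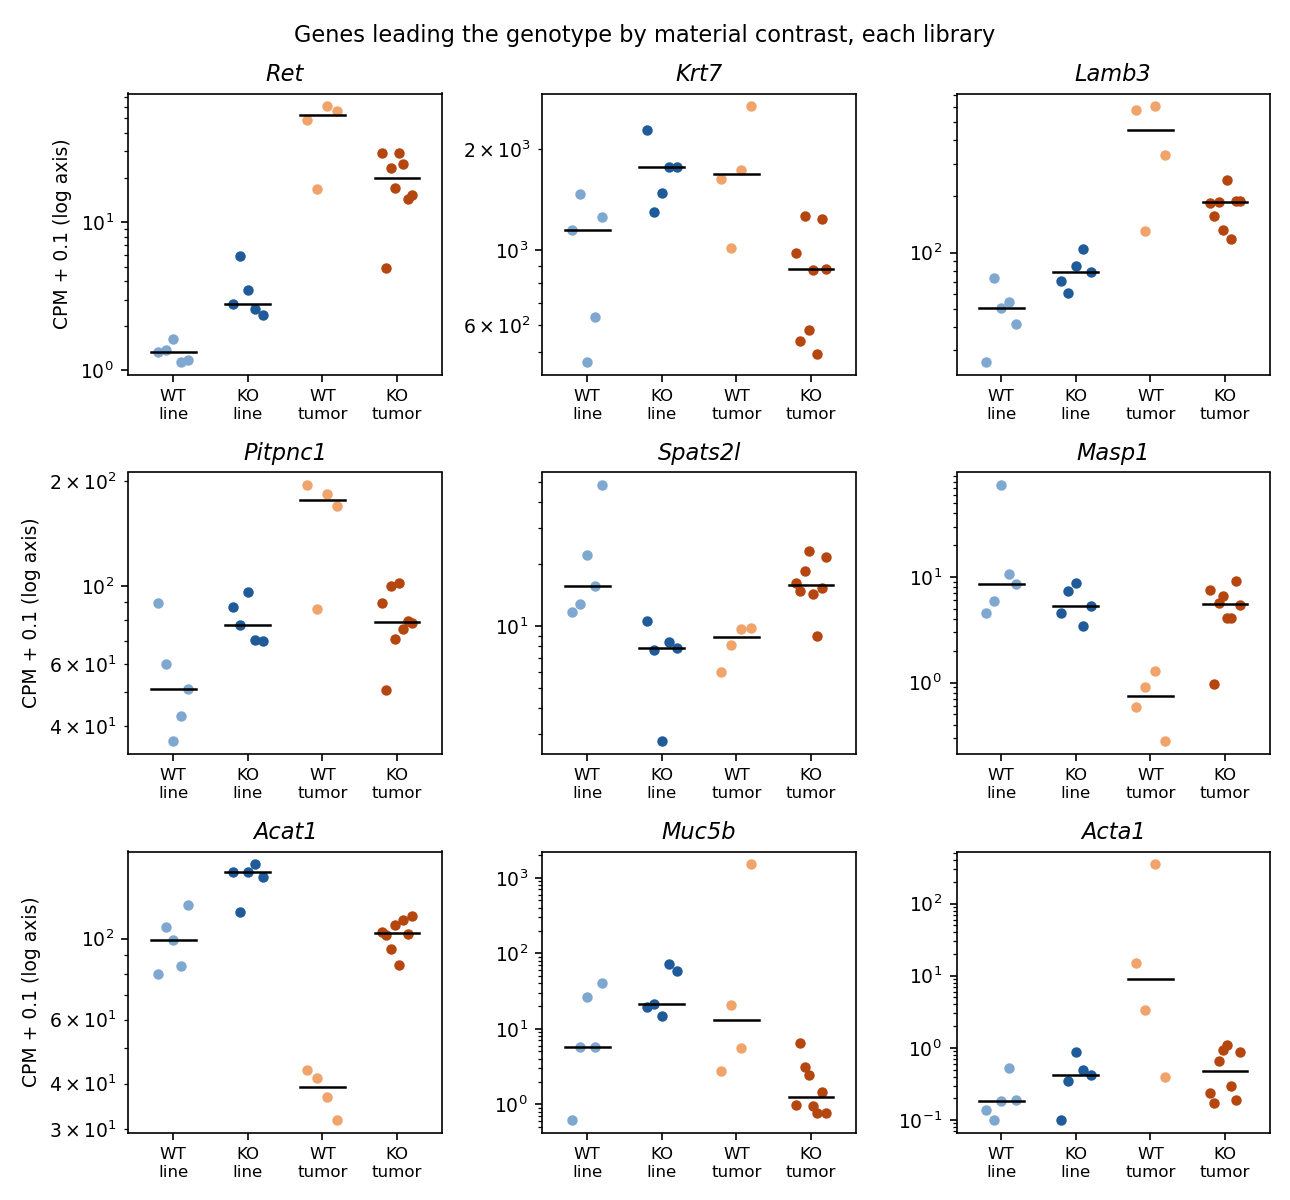
Level of 9 genes in each library (CPM plus 0.1, log axis), with black bars at group medians. Ret, Krt7, Lamb3 and Pitpnc1 are higher in KO than WT lines and lower in KO than WT tumors by their medians, Spats2l and Masp1 the reverse, and Acat1 is higher in KO in both. Muc5b and Acta1 each have 1 WT tumor far above the rest, at 1508 and 351 CPM.

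Pitpnc1, a phosphatidylinositol transfer protein (chr11:107207892-107470699), had the same pattern. Its levels were 89.8, 59.8, 36.1, 42.6 and 50.97 CPM in WT lines and 87.3, 77.6, 96.0, 70.2 and 69.9 CPM in KO lines. They were 194, 85.9, 183 and 169 CPM in WT tumors and 50.5 to 102 CPM (median 79.3) in KO tumors. KO tumors spanned the range of the KO lines, and 3 of the 4 WT tumors lay above all other libraries. The contrast was -1.49 ± 0.33 (adjusted p = 0.347).

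The opposite order, lower in KO lines and higher in KO tumors, was led by Spats2l and Masp1. Spats2l, a stress granule-associated protein (chr1:57774162-57948394), measured 11.7, 12.7, 22.02, 15.7 and 48.0 CPM in WT lines and 10.5, 7.57, 2.69, 8.33 and 7.73 CPM in KO lines, with no overlap. WT tumors had 5.89, 8.02, 9.56 and 9.69 CPM and KO tumors 8.83 to 23.1 CPM (median 15.7), with only KO tumor 6 inside the WT range. Log2 fold changes were -1.58 ± 0.38 in lines and 1.00 ± 0.37 in tumors, and the contrast was 2.58 ± 0.53 (adjusted p = 0.299).

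Masp1, a serine protease of the lectin pathway of complement (chr16:23449417-23520815), had 4.45, 5.77, 73.7, 10.5 and 8.47 CPM in WT lines and 4.503, 7.29, 8.75, 3.34 and 5.21 CPM in KO lines. WT tumors had 0.490, 0.808, 1.19 and 0.180 CPM, and 7 of 8 KO tumors had 3.97 to 9.15 CPM, with KO tumor 2 at 0.871. Tumors differed by 2.99 ± 0.77 (adjusted p = 0.101) and lines by -1.82 ± 0.69, with WT line 3 far above the other WT lines. The contrast was 4.81 ± 1.03 (adjusted p = 0.311), 3.32 without WT line 3, and 1.99 and 0.78 under the fixed block of 5 and of 4 animals. Rtp4 overlaps Masp1 on the other strand.

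Other genes with large fitted contrasts were near the limit of detection in lines. Aoc1, which encodes diamine oxidase, had at most 0.632 CPM in any line, 0.257 to 1.89 CPM in WT tumors and 10.8 to 29.6 CPM in KO tumors other than KO tumor 2, which had 1.29. Itgbl1, an integrin beta-like extracellular protein, had at most 0.432 CPM in any line, 0.757 to 3.98 CPM in WT tumors and 1.18 to 111 CPM in KO tumors. Both were higher in 7 of 8 KO tumors than in any WT tumor. Stk32b, a serine/threonine kinase, stayed at or below 0.101 CPM in WT tumors and reached 0.274 to 1.93 CPM in KO tumors, and in lines it had 0.926 CPM in WT line 3 and at most 0.0771 CPM elsewhere. Npr3, the natriuretic clearance receptor, was at 0 in all KO lines and at 0 to 0.950 CPM in WT lines, while its tumor groups overlapped at 2.56 to 4.01 CPM in WT and 1.46 to 12.2 CPM in KO. The fitted contrasts of Aoc1 (6.37), Itgbl1 (6.38), Stk32b (8.36) and Npr3 (6.97) rest on very few counts in lines and are not sizes.

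Gkap1, a G kinase-anchoring protein, and Ildr2, an immunoglobulin-like domain receptor, were well measured in both materials. Gkap1 had 8.595 to 14.2 CPM in WT lines, 7.53 to 12.3 CPM in KO lines, 4.11 to 8.38 CPM in WT tumors and 9.32 to 17.3 CPM in KO tumors. Only its tumor groups are apart, and the contrast was 1.30 ± 0.32 (adjusted p = 0.428). Ildr2 had 7.03 to 27.8 CPM in WT tumors and 40.9 to 150 CPM in KO tumors, again apart, and overlapping lines at 2.41 to 77.6 CPM in WT and 1.78 to 17.0 CPM in KO. Its contrast was 3.89 ± 1.01 (adjusted p = 0.428).

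Kctd11 and Tgfb1 had larger fitted effects in tumors than in lines. Kctd11, an adaptor of a ubiquitin ligase that restrains Hedgehog signalling, had 10.3 to 16.2 CPM in WT lines and 9.22 to 19.6 CPM in KO lines. WT tumors had 158, 43.3, 117 and 158 CPM and KO tumors 17.5 to 65.8 CPM (median 32.7). It fell by 1.66 on the log2 scale in tumors (adjusted p = 0.0355) with a line effect of 0.29, and the contrast was -1.95 ± 0.48 (adjusted p = 0.428). Tgfb1, the cytokine TGF-beta 1, had 63.8 to 74.9 CPM in WT lines and 73.0 to 110 CPM in KO lines, and 244, 115, 172 and 151 CPM in WT tumors against 69.0 to 145 CPM (median 86.5) in KO tumors. Its contrast was -1.14 ± 0.27 (adjusted p = 0.425).

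Hexokinase 2 (Hk2), the entry enzyme of glycolysis in many tumors, had 249, 196, 214 and 308 CPM in WT tumors and 61.0 to 182 CPM in KO tumors, with no overlap, and overlapping levels in lines (131 to 250 and 193 to 267 CPM). The contrast was -1.33 ± 0.39, and -0.65 and -0.56 under the fixed block of 5 and of 4 animals. Jag1, a Notch ligand whose 3′ UTR holds an 8mer, had a tumor effect of -1.58 ± 0.40 and a line effect of 0.20, neither past the threshold. Its WT tumors were spread from 78.5 to 486 CPM and overlapped the KO tumors at 45.1 to 175 CPM. The cytokine genes Lif and Csf3 had contrasts of -1.29 ± 0.41 and -2.56 ± 0.93.

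The larger fitted effect of Dok2 was in lines. This adaptor that dampens tyrosine kinase signalling had 10.9, 11.8, 2.29, 9.25 and 4.36 CPM in WT lines and 71.2, 29.2, 18.6, 26.0 and 16.3 CPM in KO lines, with no overlap. In tumors the groups lay together, at 44.7 to 85.0 CPM in WT and 26.4 to 72.7 CPM in KO. The contrast was -2.33 ± 0.58 (adjusted p = 0.428). Xpo7 overlaps Dok2 on the other strand with more counts than Dok2 has. Klhl30, a Kelch-family protein, was low throughout, with all KO lines (0.946 to 2.03 CPM) above all WT lines (0.169 to 0.694 CPM), and had 7.09 CPM in WT tumor 3 against at most 1.93 CPM in any other tumor. Its contrast of -3.71 was -2.30 without WT tumor 3. Thbs1, the matrix protein thrombospondin 1, and Gas1, a Hedgehog co-receptor, had line effects of 2.33 ± 0.64 and 1.69 ± 0.47 that did not pass, and tumor effects of 0.00094 and 0.32.

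Several of the largest contrasts rest on 1 library. Muc5b, a gel-forming mucin, measured 1508 CPM in WT tumor 4 and 2.66, 20.4 and 5.49 CPM in the other WT tumors, against 0.661 to 6.44 CPM in KO tumors. It fell in tumors (log2 -7.56, adjusted p = 0.0214), and its contrast of -8.82 became -3.49 without WT tumor 4. Acta1, skeletal muscle actin, measured 351 CPM in WT tumor 3 and 14.8, 3.30 and 0.288 CPM in the other WT tumors, against at most 0.983 CPM in KO tumors. Its contrast of -9.05 was -5.15 without WT tumor 3. The muscle genes Actn3 and Mylpf went from -6.71 and -3.35 to -0.69 and -0.77 without that tumor.

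WT line 3 did the same on the line side. Mn1, a transcriptional cofactor, had 14.5 CPM in WT line 3, 0 in the other WT lines and at most 0.0384 CPM in KO lines, and its contrast of 9.27 became -0.07 without that line. The receptor kinase Fgfr3 had 75.6 CPM in WT line 3 and 0.801 to 3.19 CPM in the other 9 lines, and its contrast fell from 5.27 to 2.09 without it. Egflam, the matrix protein pikachurin, had 58.2 CPM there and 0.806 to 2.81 CPM in the others, and its contrast went from 5.89 to 2.79. In tumors Egflam was higher in KO, with 2.31, 6.03, 2.66 and 10.2 CPM in WT and 8.33 to 85.8 CPM in KO, and KO tumor 6 alone lay in the WT range. Sparc and Ttr had contrasts of 2.97 and 5.01, and of 1.73 and 2.27 without WT line 3.

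Each material's own calls frame the contrast. In this joint fit 10 genes (0.0536%) rose and 30 (0.161%) fell in KO tumors, and 4 (0.0214%) rose and 1 (0.00536%) fell in KO lines. Cdip1 and Taf7 rose in both materials. The genes named in the rest of this paragraph were chosen after their values were seen. In tumors Acat1, Lrrc49, Ghrl, Tprgl, Serpinb9b, Gm7173, Gk5 and Map3k13 also rose. For all 10 the KO tumors lay above the WT tumors without overlap, as they did for 204 (1.09%) of all genes tested, and nothing is read from this count, since the calls use the same values. Ghrl, the precursor of the endocrine hormone ghrelin, had at most 0.353 CPM in WT tumors and 4.27 to 25.4 CPM in 7 of 8 KO tumors. In lines Gid4 and Sphk1 also rose, and Magix fell. Sphk1, sphingosine kinase 1, had 3.43 to 6.004 CPM in WT and 7.12 to 14.4 CPM in KO lines, and its tumor groups overlapped at 30.96 to 54.2 CPM in WT and 35.2 to 64.5 CPM in KO.

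The 30 genes that fell in tumors are a mixture. For 8 of them the KO tumors lay below the WT tumors without overlap, as for 145 (0.777%) of all genes tested, from the values that made the calls. In tumors, 14 had their highest value in WT tumor 3 and 10 in WT tumor 4. Atp2a1, Acta1, Tnnc2, Mylpf, Actn3, Tcap, Neb, Ttn, Xirp2, Nrap and Myl1 encode parts of striated muscle, and each of these was highest in WT tumor 3, with Ttn at 444 CPM there and at most 6.80 CPM in the other tumors. Leaving out WT tumor 3 left 4 calls in tumors (3 higher, 1 lower), and leaving out WT tumor 2 gave 170 (51 higher, 119 lower). With tumors fitted apart from lines 2 genes passed, Acat1 and Taf7, and with lines fitted apart 2 passed, Cdip1 and Rnf167. Leaving out WT line 3 raised the line calls to 15 (13 higher, 2 lower), and limma-voom called 1 gene in lines. In tumors limma-voom called 17 genes higher and 10 lower, so the balance of rises and falls turned with the tool. Of the 40 tumor calls, 27 had an unadjusted contrast p under 0.05, against 8.25% of all genes tested. The contrast contains the tumor effect by which these genes were called, so nothing is read from this count. A line effect of the opposite sign was found for 12 of the 40, against 41.6% of all genes tested.

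Gene lists show where effects differed as groups, as a description without a test, and 0 members of any list passed the contrast. Over all genes the median contrast was 0.04, the median tumor effect 0.04 and the median line effect -0.02. The contrast was positive for 9973 and negative for 8689 of the 18662 genes tested. The basal and squamous list, which holds laminin-332 chains and stratified keratins, had the lowest median after skeletal muscle, -1.20, from 0.39 in lines and -1.09 in tumors. Of its 14 genes, 11 were higher in KO lines and lower in KO tumors, against 3172 of the 18662 genes tested. Only 8 of the 14 were detected in both materials, with 3 detected in tumors only and 3 in neither, so some line effects rest on few counts. Summed, these genes reached 714 to 1510 CPM in WT lines, 1196 to 1563 in KO lines, 1351 to 4829 in WT tumors and 1127 to 2046 in KO tumors. The epithelial and ductal list had 16 of 17 genes with a negative contrast (median -0.62, lines 0.29, tumors -0.15, and -0.39 without WT line 4), and the classical gastric list 8 of 12 (median -0.64, lines 0.76, tumors 0.13), whose median was 0.13 without KO line 4 and 0.04 under the fixed block of 4 animals (-0.46 with 5).

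Lists of growth signalling leaned the same way. All 11 immediate early genes, the transcription factors induced within minutes of a stimulus, had a negative contrast (median -0.64), with 0.44 in lines and -0.27 in tumors. Fosb and Jun had contrasts of -1.59 ± 0.63 and -0.74 ± 0.35 (-1.05 without WT tumor 1 and -0.47 without WT tumor 4), and WT tumor 1 and WT tumor 4 held the highest Fosb values, 24.8 and 17.4 CPM, against 2.46 to 10.0 CPM in KO tumors. MAPK output genes, those transcribed when ERK is active, had a median of -0.58, from 0.02 in lines and -0.58 in tumors, with Myc at -0.90 ± 0.38, Ccnd1 at -0.79 ± 0.37 and Dusp6 at -0.78 ± 0.36. All 24 proliferation genes had negative fitted effects in lines and in tumors (medians -0.35 and -0.55), with Aurkb at -0.45 in lines and -1.02 in tumors, and none of them passed in either material. The contrast was negative for 21 and positive for 3 of them, against 9973 positive of all 18662 genes (53.4%). Its median of -0.18 ran from -0.35 to -0.08 with 1 library left out, and was 0.30 and 0.14 under the fixed block of 5 and of 4 animals.

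Extracellular matrix and stromal lists leaned toward KO tumors. The matrix list had a median contrast of 0.60 (9 of 11 positive, lines -0.32, tumors 0.24) but -0.10 without WT line 3. Within it the basement membrane collagens Col4a1 and Col4a2, which share a promoter and overlap in the annotation, had contrasts of 0.63 ± 0.23 and 0.65 ± 0.25. The mesenchymal list had a median of 0.52, from 0.33 without WT line 3 to 0.87 without KO line 3, and 0.24 and -0.16 under the fixed block of 5 and of 4 animals. The Hedgehog list had 0.61 (10 of 14 positive, lines -0.05, tumors 0.65), from 0.38 without KO line 3 to 0.95 without WT tumor 2, and 0.19 and 0.24 under those blocks. Gli1, the transcription factor that reads out Hedgehog activity, had at most 0.644 CPM in lines, 0.829 to 3.64 CPM in WT tumors and 2.67 to 26.2 CPM in KO tumors. Its contrast was 4.09 ± 1.13 (adjusted p = 0.428), from 2.19 in tumors and -1.905 in lines. The line part rests on few counts, since Gli1 was below the detection level in lines, with WT line 3 the highest. Arhgap9 overlaps Gli1 on the other strand.

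**Figure D4:**
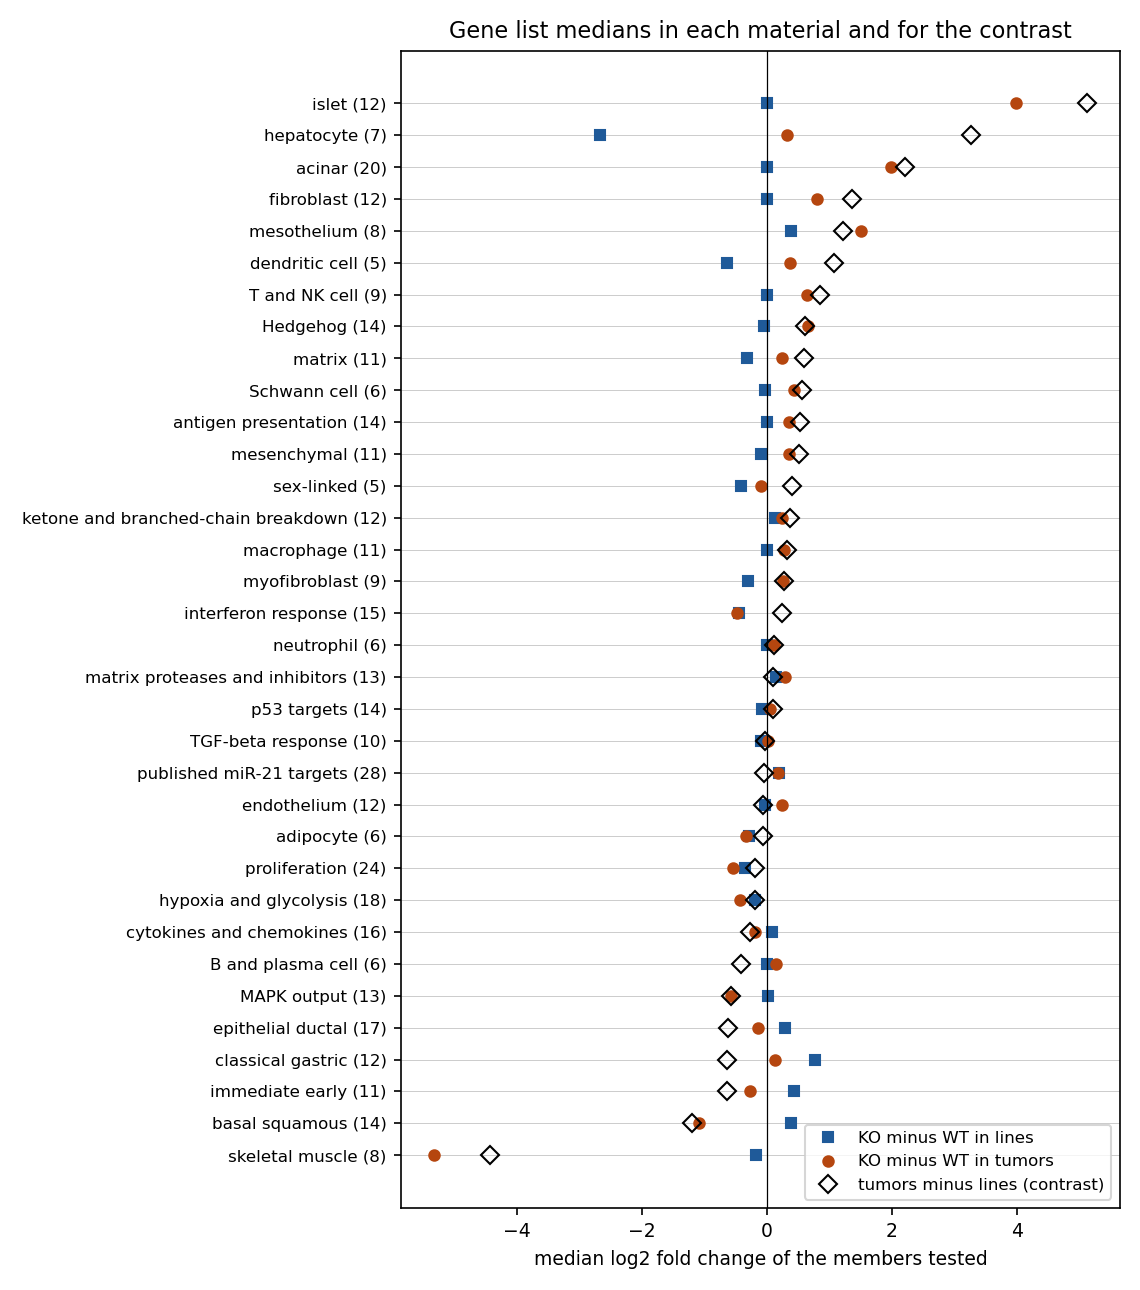
Median log2 fold change of each gene list, with the number of members tested in brackets: KO minus WT in lines (squares), in tumors (circles) and their contrast (diamonds, the median of the members' contrasts). Basal, epithelial, gastric, immediate early and MAPK lists lie left of 0, and lists at 0 in lines are mostly genes not measured there.

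In bulk tissue, more cells of a type and more RNA per cell cannot be told apart, and the 2 materials differ in which cells they hold. Of 2833 genes detected in tumors only, 286 had a positive and 62 a negative contrast at unadjusted p under 0.05, against 492 and 430 of the 12385 detected in both. Detection uses the mean over 12 tumors, of which 8 are KO. Genes high in KO tumors therefore enter the first class more easily, and nothing is read from these counts. For genes with 0 counts in all lines, such as Ins1, Ins2, Gcg, Sst and Ppy, the contrast p was near 1, so this test says nothing about them. The 12 islet genes measured summed to at most 0.282 CPM in any line, to 0.289 to 24.8 CPM in WT tumors and to 2.33 to 452 CPM in KO tumors. All 12 were higher in KO tumors (median 3.99), as were 2035 of the 2833 genes detected in tumors only. Their median contrast was 5.13, and 3.93 and -3.01 under the fixed block of 5 and of 4 animals. The 20 acinar genes summed to 20.6 to 709 CPM in WT tumors and 33.4 to 3749 CPM in KO tumors (median contrast 2.21, and 0.67 without KO tumor 4 and 4.61 without WT tumor 4). The fibroblast list had a median contrast of 1.36, with sums of 2951 to 7801 CPM in WT and 1980 to 12880 CPM in KO tumors, and Fbln1, a matrix glycoprotein also made by the lines, had 1.82 ± 0.53. Under the fixed animal block the fibroblast median was -0.12 with 5 animals and -1.04 with 4, and Fbln1 was 0.43 with 5 and -0.10 with 4. The acinar median was 2.98 with 5 and -0.53 with 4. Skeletal muscle genes summed to 73.0 to 1752 CPM in WT tumors and 33.5 to 468 CPM in KO tumors, with a median contrast of -4.44 that was -0.83 without WT tumor 3. The part of these cell types in the contrasts of other genes was not tested. Fits with acinar, fibroblast and epithelial covariates each called 0 genes, but so did the fit without a covariate, so these counts cannot show it.

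Immune cell and endothelial lists summed to less in every line than in any tumor. Their median contrasts were 0.32 for macrophage genes, 0.11 for neutrophil genes, 1.08 for dendritic cell genes, 0.85 for T and NK cell genes, -0.41 for B and plasma cell genes and -0.06 for endothelial genes. Leaving out 1 tumor turned several of these. Without KO tumor 8 the T and NK cell median was -1.42, and without WT tumor 2 the B and plasma cell median was 2.39 and the endothelial 0.12. Without KO tumor 4 the neutrophil median was -0.22 and the macrophage median 0.14. The dendritic cell median ran from 0.55 without KO tumor 8 to 2.40 without WT tumor 2.

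Mesothelial and Schwann cell genes were measured in both materials. They summed to 347 to 1570 and to 34.2 to 83.7 CPM in lines, and to 325 to 2182 and to 35.5 to 122 CPM in tumors. The median contrast of mesothelial genes was 1.22 (1.93 without WT tumor 4), of Schwann cell genes 0.56 (0.32 without WT tumor 3) and of hepatocyte genes 3.27 (1.26 without KO tumor 5). Adipocyte genes had -0.06, myofibroblast genes 0.27 and the 5 sex-linked genes 0.40. The summed hepatocyte genes reached 372 CPM in 1 WT line, against a median of 18.1 CPM over the WT lines. The fixed animal block of 5 and of 4 animals turned several of these medians. It gave -0.28 and -0.91 for macrophage genes, -3.30 and -3.68 for T and NK cell genes, -0.16 and -3.52 for hepatocyte genes and -0.06 and -1.66 for Schwann cell genes. Mesothelial genes had 0.05 and 1.86 under it, and sex-linked genes -3.56 and -0.10.

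Among the remaining pathways, antigen presentation had 0.53, interferon response 0.24, cytokines and chemokines -0.28 and hypoxia and glycolysis -0.19. The p53 targets had 0.09, matrix proteases and their inhibitors 0.09 and TGF-beta response -0.03. All 14 antigen presentation genes were higher in KO tumors, as were 9996 of the 18662 genes tested, and none of the 14 passed. Of the 14, 9 were detected in tumors only, a class where 2035 of 2833 genes were higher in KO tumors. Antigen presentation and interferon response were at -0.26 and -0.17 without KO tumor 8, proteases at -0.35 and myofibroblast genes at -0.68 without WT line 3, and cytokines at 0.08 without WT tumor 2. Under the fixed block of 5 and of 4 animals, antigen presentation had -0.13 and -0.71, interferon response -0.17 and -0.11, proteases -0.55 and -0.87, hypoxia and glycolysis -0.05 and 0.12 and cytokines -0.54 and 0.01. The hypoxia and glycolysis median ran from -0.31 to -0.04 with 1 library left out. Leaving out 1 library also turned the small medians of p53 targets, TGF-beta response, adipocyte and sex-linked genes. Ketone and branched-chain breakdown, the pathway of Acat1, had a median of 0.37 (0.24 without WT tumor 1, and 0.25 and -0.09 under the fixed blocks), with Acat1 the one member that passed in tumors. Bckdhb, a subunit of the branched-chain keto acid dehydrogenase, had 0.62 ± 0.37, and Acadsb, an acyl-CoA dehydrogenase, 0.47 ± 0.27.

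Genes with miR-21 8mers had higher median effects than genes without a site in both materials, with the wider gap in tumors. Among genes detected in both, the 285 with an 8mer had median effects of 0.08 in lines and 0.22 in tumors, and a median contrast of 0.12. The 699 with a 7mer-m8 had 0.01, 0.06 and 0.05, and the 10624 without either had -0.03, -0.03 and -0.02. Of the 285, 177 (62.1%) had a positive contrast, against 47.9% of genes without a site, and 4 rose in tumors and 3 in lines. In all, 8 of the 12385 genes detected in both rose in tumors and 4 in lines, and of the 10624 without a site 3 and 1 did. Site genes have longer 3′ UTRs, with a median of 3027 bases for 8mer genes and 1292 for genes without a site, and levels of 48.6 and 38.9 CPM. The part of length in the shift was not tested, and no test was made of these medians.

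**Figure D5:**
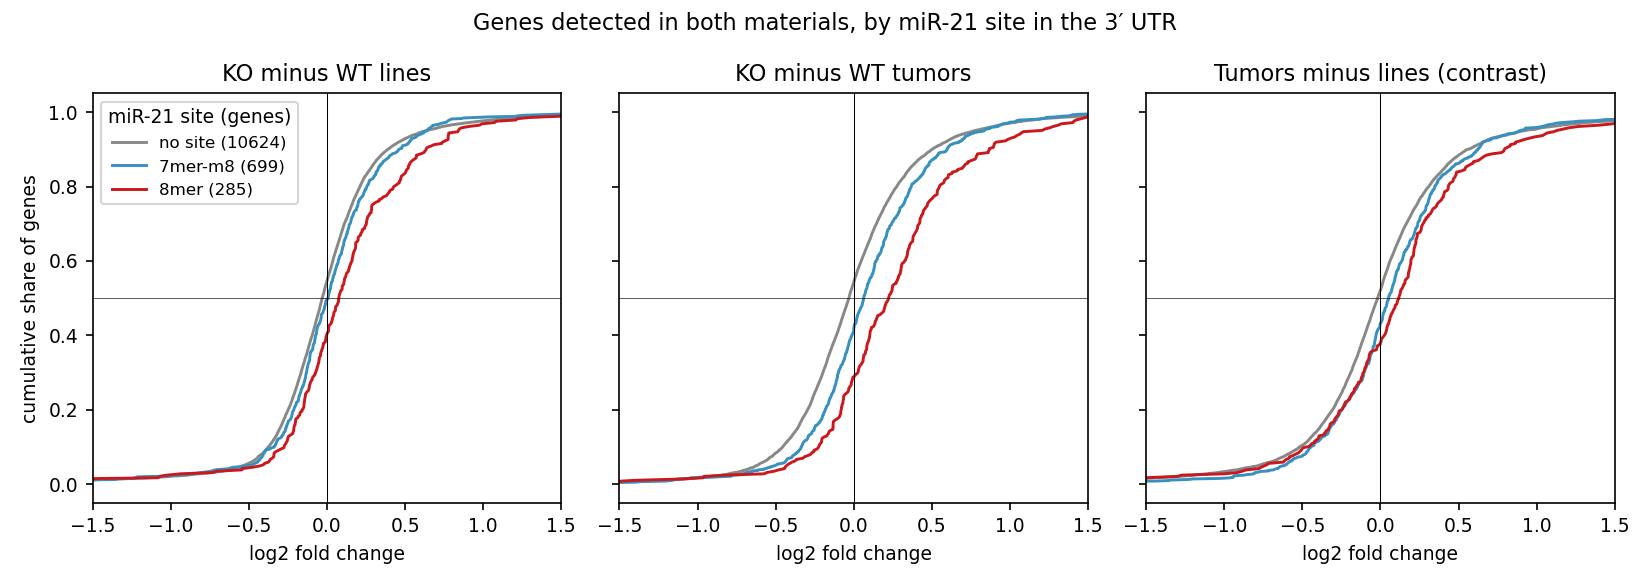
Cumulative share of genes detected in both materials by log2 fold change in lines, in tumors and for the contrast, split by the miR-21 match in the 3′ UTR. Curves further right are higher in KO. The 8mer curve crosses the midline at 0.08 in lines, 0.22 in tumors and 0.12 for the contrast, and the curve without a site at -0.03, -0.03 and -0.02.

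The published miR-21 targets had no common sign of the contrast. Of 28 measured, 12 had a positive and 16 a negative contrast (median -0.05), with medians of 0.20 in lines and 0.18 in tumors, and 0 passed in either material. Reck, a membrane inhibitor of matrix metalloproteinases, had 0 to 0.644 CPM in WT lines and 0 to 0.911 CPM in KO lines, too little to compare. In tumors it had 1.05, 4.11, 2.28 and 2.09 CPM in WT and 2.54 to 29.9 CPM (median 12.6) in KO, and only KO tumor 2 lay in the WT range. Its contrast was 2.16 ± 1.06 (adjusted p = 0.615), and 0.12 and -0.87 under the fixed block of 5 and of 4 animals. Pdcd4, a translation inhibitor and tumor suppressor, had 63.6, 62.6, 115, 31.3 and 57.6 CPM in WT lines and 78.4 to 95.3 CPM in KO lines, and 50.6 to 130 CPM in WT tumors against 69.9 to 301 CPM in KO tumors. The groups overlap in both materials, and the contrast was 0.64 ± 0.47 (adjusted p = 0.754), from 0.34 without WT line 3 to 1.00 without WT tumor 2.

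The Sprouty genes, inhibitors of receptor tyrosine kinase signalling, had contrasts smaller than their standard errors. Spry1 had effects of 0.63 ± 0.27 in lines and 0.70 ± 0.27 in tumors, with a contrast of 0.07 ± 0.37. Spry2 had a contrast of -0.31 ± 0.39, which was 0.08 without WT tumor 1, whose 103 CPM stood against 43.8 to 47.6 CPM in the other WT tumors. Timp3, a metalloproteinase inhibitor, had 4.41, 36.0, 283, 20.6 and 1.04 CPM in WT lines, and its contrast of 0.66 ± 1.16 turned to -1.49 without WT line 3.

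Vmp1, an autophagy gene, spans chr11:86583865-86683836 and so contains the miR-21 locus on the same strand. All KO lines (358 to 475 CPM) were above all WT lines (223 to 262 CPM), while KO tumors (417 to 690 CPM) and WT tumors (351, 365, 499 and 518 CPM) overlapped. The effects were 0.65 ± 0.15 and 0.35 ± 0.15, and the contrast was -0.30 ± 0.21 (adjusted p = 0.738). Rnf167, a lysosomal ubiquitin ligase that carries a 7mer-m8, had 20.3 to 33.0 CPM in WT lines and 51.1 to 78.4 CPM in KO lines, with no overlap, and 28.2 to 75.3 and 44.8 to 112 CPM in tumors. Its contrast was -0.72 ± 0.34 (adjusted p = 0.598) and -0.42 without WT tumor 4, and it overlaps Slc25a11 on the other strand, whose counts are about as high.

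Libraries named for the same animal give the tumor and line side by side, as values only, on the log2 scale of CPM plus 1. The 3 WT animals had 4.48, 2.97 and 4.91 log2 units more Ret in the tumor than in the line, and the 2 KO animals 0.64 and, for the pair with Xist in the tumor only, 2.87. For Krt7 the tumor minus line difference was 0.50, -0.53 and 1.45 in WT and -2.08 and -0.48 in KO. For Acat1 it was -0.86, -1.35 and -1.17 in WT and -0.57 and -0.65 in KO. The KO values lay below all WT values for Ret, with 2.87 just under 2.97, and above all of them for Acat1. Without that KO pair this also held, but for 1 KO animal only. The tumor of that animal, KO tumor 2, was low in Ret (4.81 CPM against 14.3 to 29.2 in the other KO tumors). For Krt7 the KO values lay below all WT values only without that pair.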

How the data were processed

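The authors deposited raw counts, 1 per gene and library, from trimmed reads (Trim Galore) aligned to mm10 with STAR, per the submitters' processing notes. The strand setting and annotation of the counting are not given in the sources used here, so overlapping genes are named beside some values. Further overlaps on the other strand include Gm26982 with Ghrl, Rabep2 with Atp2a1, Ube2c with Tnnc2, Habp2 with Nrap and C430014B12Rik with Col4a3. On the same strand, 1300002E11Rik overlaps Map3k13. The counts of these genes could include reads of their neighbours. Libraries came from a stranded mRNA kit, per the labels. The tables of tumors and lines were joined by Ensembl ID (53342 genes, of which 53237 have a GENCODE vM21 symbol). Symbols held by 2 genes stand for the one with more counts. Of the libraries, 0 pairs were identical, and 0 columns lacked a sample.

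All 22 libraries entered 1 fit with 4 group means, in edgeR 4.0.16 (R 4.3.3): genes with few counts dropped by the default filter on the groups, TMM scaling, a robust quasi-likelihood F test, and p-values adjusted by Benjamini-Hochberg over 18662 genes at a threshold of 0.05. The contrast is (KO tumors minus WT tumors) minus (KO lines minus WT lines). The biological coefficient of variation was 0.50. The tests were checked on simulated data of independent libraries without shared animals. That setting differs from these data, so nothing is read from it about the 0 calls. Library totals (24547650 to 31118113) limit precision only for low genes. Alternatives used limma 3.58.1, DESeq2 1.42.0 and sva 3.50.0.

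Titles name the same animal for 5 lines and tumors, which pairs them, although Xist and Y-linked genes disagree in 1 KO pair (KO line 5, KO tumor 3) and some Y-linked genes at 0 in WT lines 1, 2 and 4 are not at 0 in the tumors of those animals. Over 14221 autosomal genes, deviations of such libraries from their group means correlated at 0.339, 0.157 and 0.399 in WT and at 0.0902 and 0.025 in KO.

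The members, gene lists and tests were chosen with earlier results of these data known. Named genes are the 10 smallest contrast p values in each direction at a mean of at least 1 CPM, the 8 smallest in each direction at that mean in both materials, the 8 smallest with opposite effects at unadjusted p under 0.05 in each material, up to 3 per list, and Cdip1, Rnf167, Acat1, Vmp1 and 5 published targets. Genes named from the counts of non-overlapping groups or of calls per material are outside that rule, and some genes in those counts are not reported here.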

Additional observations from a re-analysis of the deposited data

Results flagged for a closer look

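For the genes named by the rule other than through the lists, the level in 1 library of a group lay further from its nearest neighbour than the Dixon ratio allows in 16 of 104 gene and group combinations. Chance alone gives about 1 in 20, and the libraries repeat. KO tumor 2 was low in Ret (4.81 CPM against 14.3 to 29.2 in the other KO tumors), Masp1 (0.871 against 3.97 to 9.15), Aoc1 (1.29 against 10.8 to 29.6) and Mn1 (0.871 against 4.03 to 8.90). WT tumor 2 was low in Ret (16.7 CPM against 48.7 to 60.3) and Pitpnc1 (85.9 against 169 to 194). WT line 3 was high in Masp1 (73.7 CPM against 4.45 to 10.5), Egflam (58.2 against 0.965 to 2.81), Fgfr3 (75.6 against 0.801 to 3.19) and Mn1 (14.5 against 0 in the other WT lines).

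KO line 3 was low in Spats2l (2.69 CPM against 7.57 to 10.5) and high in Vmp1 (475 against 358 to 384). KO line 2 was low in Acat1 (118 CPM against 148 to 160). KO tumor 5 was high in Klhl30 (1.93 CPM against 0.205 to 0.801). Spry2 was high in KO tumor 6 (112 CPM against 44.5 to 52.7) and in WT tumor 1 (103 CPM against 43.8 to 47.6), 1 tumor of each genotype.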

How the results depend on the processing

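The contrast called 0 genes under every alternative run except DESeq2 (67) and leaving out 1 library at a time, which gave 0 to 1; that gene, Magix without KO line 2, has at most 0.522 CPM in any library. Adding the animal as a replicate block, random or fixed, with or without the KO pair with Xist in the tumor only, called 0. The number with unadjusted p under 0.05 (1540) was 2329 without a low-count filter, which moved the median of all genes to 0.113, 1016 with limma-voom quality weights, 837 with the fixed block of 5 animals and 1026 without the 3 acinar-rich tumors (KO tumors 4 and 8 and WT tumor 4). Fitted apart, tumors gave 2 calls and lines 2. Leaving out each library gave 4 to 170 calls in tumors and 1 to 15 in lines. Limma-voom gave 27 in tumors (17 higher and 10 lower, against 10 and 30) and 1 in lines. The fits apart, the other fits of single materials, the weight per material and the blocks without that pair were chosen after seeing the data.

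Of 2341 values of 56 named genes, 33 changed sign, in 10 genes. Timp3 gave -1.304 with limma-voom, with and without a weight per material, -1.433 with quality weights, -1.405 with the random block (-1.453 without that pair), -1.925 with the fixed block (-2.848 with 4 animals), -0.4876 with the fibroblast and -0.01003 with the Y-linked covariate, -0.9658 with a surrogate variable, and -1.49 to 1.029 leaving out 1 library. Spry1 gave -0.06105 with quality weights, -0.06887 with the random block (-0.03033 without the pair), -0.5987 with the fixed block (-0.296 with 4 animals), -0.0299 with the acinar covariate, -0.04329 with a surrogate variable and -0.09388 to 0.218 leaving out 1 library. Sparc gave -0.3259 with the fixed block (-1.169 with 4 animals). With the fixed block of 4 animals, Itgbl1 gave -0.4034, Mn1 -1.041, Fbln1 -0.1, Myc 0.4, Reck -0.8706 and Acadsb -0.06681. Leaving out 1 library, Mn1 ranged from -0.07462 to 10.69 and Spry2 from -0.5265 to 0.08373. The cause was not tested. The fixed blocks rest on 10 and 8 libraries, the second with 1 KO animal. Depth limits low genes: 3 counts are up to 0.122 CPM, and a gene at 0 in lines has no line effect to subtract.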

Other observations

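Among the 54 genes with opposite effects at unadjusted p under 0.05 in each material, the following lie outside the naming rule and were chosen after their values were seen. None passed the contrast in edgeR, and DESeq2 called Wnt6 and Slc20a1. Col4a3 and Col4a4, neighbouring genes for basement membrane collagens of kidney and lung, had line effects of 2.04 and 1.64 and tumor effects of -1.43 and -1.62. Pgf, placental growth factor, and Slc20a1, a phosphate transporter, had 1.17 and 0.82 in lines and -1.11 and -1.20 in tumors. In the other direction, Wnt6, a secreted ligand, had -4.58 in lines and 3.31 in tumors, and Adamts2, the procollagen N-proteinase, -3.74 and 1.73. Both line effects rest on WT line 3, which had 1.41 CPM of Wnt6 and 3.22 CPM of Adamts2, against at most 0.0350 and 0.223 CPM in the other lines. Wnt6, Adamts2, Col4a3 and Col4a4 were below the detection level in lines, so their line effects rest on few counts.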
